A study of Mus musculus with 3 samples.

Results

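The genes of the Kcn nomenclature, which encode potassium channels and their partner subunits, were examined for EZH2 in mouse bone marrow-derived macrophages by chromatin immunoprecipitation and sequencing (ChIP-seq). They were chosen by symbol alone, as protein-coding RefSeq genes of GRCm38.p6 (assembly mm10) named Kcn, a subfamily letter or letters and a number. There were 92 such genes in 20 subfamilies, of 21883 protein-coding genes on the autosomes, X and Y. Marrow from femurs and tibias of adult C57BL/6 mice had been grown for 5 days with M-CSF, a growth factor that turns marrow cells into macrophages. One culture condition was not treated (NT) and the other received lipopolysaccharide (LPS), a bacterial cell wall component, for 2 h. Each condition had 1 EZH2 library, and there was 1 input DNA library, whose intervals were not analysed here. The labels do not say how many mice or cultures stood behind a library, and the stimulated data carried the name TLR, after the Toll-like receptors that include the LPS receptor, and were taken as the LPS sample.

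Potassium channels are membrane pores that let potassium leave or enter a cell and so set its membrane voltage. Voltage-gated pore subunits open on depolarisation, inward rectifiers pass current best near the resting voltage, tandem-pore channels carry background current, and other channels open with calcium or sodium inside the cell. Silent modifier subunits form no channel on their own but join pore subunits, and accessory subunits change their gating or transport. Many of these genes are used mainly by neurons, heart and muscle, and macrophages are known to use a few of them. EZH2 is the enzyme of polycomb repressive complex 2 that methylates histone H3 at lysine 27, a mark of silenced genes, and such complexes are often found over CG-rich promoters of genes that a cell type does not use. Neither transcripts nor the histone mark were measured in this series.

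The authors listed enriched intervals for each library, with a summit and a score for every interval. A gene was counted as having an interval where one met, by at least 1 bp, the 2.5 kb on either side of either annotated gene end, and its score is the highest summit score among those intervals. The NT list held 9643 intervals with a median score of 27 and a median width of 1305 bp. The LPS list held 4651 intervals with a median score of 16 and a median width of 1472 bp. The unit of the score, the read depth and the scaling between the libraries are not given in the sources used here, so a lower LPS score or a missing LPS interval cannot be told apart from a difference in depth or scaling. With 1 library per condition no test between NT and LPS was possible, and Wilson intervals at 95% cover counting error only and treat genes as independent. Of 10 macrophage marker genes, 4 had an NT interval (40%, Wilson interval 16.8% to 68.7%), among them Mertk, Spi1 and Cd14, against 38.2% of all genes. In LPS 1 had one (10%, 1.79% to 40.4%), against 16.1%. Csf1r, Adgre1, Cd68, Itgam, Lyz2 and Fcgr1 had none in either library. The identity of the cells could not be checked from expression.

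Promoter sequences are shown first, because both CG-rich and CG-poor channel promoters lay under EZH2 intervals, and both kinds also lay outside them. Each is the 300 bases from 250 before to 50 after an annotated start, from RefSeq GRCm38.p6, printed 5′ to 3′ along the gene with every CG dinucleotide in capitals. Kcng3, a silent modifier subunit that joins the Kcnb pore subunits, had 49 CG in its promoter at chr17:83631846-83632145 on the minus strand, and an interval of score 80 in NT and 36 in LPS met it. Kcng4 of the same subfamily had 4 CG at chr8:119635631-119635930 on the minus strand, and no interval in either library.
Kcng3: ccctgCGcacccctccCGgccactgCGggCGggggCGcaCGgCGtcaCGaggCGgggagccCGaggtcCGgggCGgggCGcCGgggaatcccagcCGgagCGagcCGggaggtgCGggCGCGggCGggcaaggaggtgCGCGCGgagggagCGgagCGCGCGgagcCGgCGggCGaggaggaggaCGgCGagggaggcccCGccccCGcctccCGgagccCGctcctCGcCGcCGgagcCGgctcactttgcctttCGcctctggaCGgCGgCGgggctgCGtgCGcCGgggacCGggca
Kcng4: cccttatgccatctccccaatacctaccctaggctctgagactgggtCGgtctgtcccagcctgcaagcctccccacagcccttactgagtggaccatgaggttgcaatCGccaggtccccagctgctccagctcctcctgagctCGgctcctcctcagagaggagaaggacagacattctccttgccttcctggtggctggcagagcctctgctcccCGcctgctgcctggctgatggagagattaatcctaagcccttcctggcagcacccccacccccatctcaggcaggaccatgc
The first pair thus sets a promoter with dense CG under an interval against one with few CG and none. Kcng3 was taken for the highest NT score of its class among genes whose NT interval met the promoter. Its partner was to be the gene of the same subfamily without an interval whose promoter had the fewest CG. That rule favours a contrast in CG, so the pair is an illustration only.

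In the Kcna subfamily of voltage-gated pore subunits, the pair chosen by the same rule kept that order, with few CG in both promoters. A pair chosen later reversed it. Kcna7, a pore subunit described in heart and skeletal muscle, had 4 CG at chr7:45405710-45406009 on the plus strand, and an interval of score 64 in NT and 35 in LPS met this promoter. Kcna10, a subunit described in kidney and inner ear, had 0 CG at chr3:107182893-107183192 on the plus strand and no interval. Kcna2, a neuronal subunit, had an interval of score 82 in NT and 54 in LPS over an internal start whose promoter, at chr3:107101317-107101616 on the plus strand, had 31 CG. Kcna3, the main voltage-gated channel of lymphocytes and known in macrophages, had 37 CG at chr3:107035912-107036211 on the plus strand and no interval. The pair of Kcna2 and Kcna3, which are neighbours on the chromosome, was chosen after the values were seen.
Kcna7: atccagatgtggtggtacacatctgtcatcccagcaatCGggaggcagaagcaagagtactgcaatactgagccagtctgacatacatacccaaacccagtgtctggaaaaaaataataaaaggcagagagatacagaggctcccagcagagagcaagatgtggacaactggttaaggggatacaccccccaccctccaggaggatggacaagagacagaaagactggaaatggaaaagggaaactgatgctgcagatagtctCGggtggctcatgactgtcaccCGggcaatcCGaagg
Kcna10: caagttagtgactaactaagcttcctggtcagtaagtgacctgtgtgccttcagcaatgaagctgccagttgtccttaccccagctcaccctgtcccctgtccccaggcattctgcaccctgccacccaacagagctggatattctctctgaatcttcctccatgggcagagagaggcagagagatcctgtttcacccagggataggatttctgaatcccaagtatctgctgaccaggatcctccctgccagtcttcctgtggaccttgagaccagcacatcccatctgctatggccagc
Kcna2: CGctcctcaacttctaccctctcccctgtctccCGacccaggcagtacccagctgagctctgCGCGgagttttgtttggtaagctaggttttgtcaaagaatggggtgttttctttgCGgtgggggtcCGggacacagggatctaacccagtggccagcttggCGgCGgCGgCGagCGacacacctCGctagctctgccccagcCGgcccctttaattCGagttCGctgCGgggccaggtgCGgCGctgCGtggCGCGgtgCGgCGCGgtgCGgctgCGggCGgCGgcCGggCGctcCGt
Kcna3: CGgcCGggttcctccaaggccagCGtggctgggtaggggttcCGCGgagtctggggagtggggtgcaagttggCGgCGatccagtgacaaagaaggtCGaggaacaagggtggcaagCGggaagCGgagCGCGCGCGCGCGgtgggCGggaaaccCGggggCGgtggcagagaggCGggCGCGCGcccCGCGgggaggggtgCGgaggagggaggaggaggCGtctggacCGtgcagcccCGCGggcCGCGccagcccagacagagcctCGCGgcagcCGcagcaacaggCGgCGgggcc
Among these 6 promoters, 3 were met by an interval of each library and 3 by none, and neither set was uniformly rich or poor in CG. In the pairs that the rule gave for the other classes, the promoter met by NT also had more CG. These were Kcnj8 (9 CG) and Kcnj16 (1), Kcnk12 (20) and Kcnk16 (2), Kcnn1 (13) and Kcnn4 (6), and Kcnmb4 (48) and Kcnmb1 (1).

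In NT cells 48 of the 92 channel genes had an EZH2 interval at a gene end (52.2%, Wilson interval 42.1% to 62.1%), against 38.2% of all protein-coding genes. In LPS cells 39 had one (42.4%, 32.8% to 52.6%), against 16.1% of all genes. All 39 also had an NT interval, so 42.4% of channel genes had both, against 15.6% of all genes. An NT interval was likewise present at 3417 of the 3534 protein-coding genes with an LPS interval. Another 9 channel genes had an interval in NT alone, against 22.6% of all genes, and 0 had one in LPS alone, where all genes gave 117 (0.535%). The remaining 44 had none in either library. In each library the lower end of the Wilson interval lay above the share of all genes, by less in NT than in LPS. With annotated starts alone this no longer held in NT, where 31 of 67 genes (46.3%, 34.9% to 58.1%) stood against 35.7%.

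Channel genes with an NT interval were compared with all genes that had one. An LPS interval was also present at 39 of 48 (81.2%, Wilson interval 68.1% to 89.8%), against 3417 of 8359 genes, or 40.9% (39.8% to 41.9%). The scores and widths of the NT intervals moved with this. The median NT score was 38.5 at channel genes and 28 at all genes with an NT interval, and 30 of the 48 channel genes were above the latter. Their highest-scoring NT interval had a median width of 2228 bp against 1322 bp, and 30 of 48 (62.5%) were at least 2 kb wide, against 24.9% of all genes.

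Within bands of NT score the difference was seen mainly at low and middle scores. Of channel genes with an NT score of up to 30, 11 of 19 (57.9%, 36.3% to 76.9%) had an LPS interval, against 21.4% of 4890 genes. Between 30 and 50 it was 15 of 16 (93.8%, 71.7% to 98.9%) against 55.0% of 2353 genes. Over 50 it was 13 of 13 against 96.4% of 1116 genes, so that nearly every gene had an LPS interval there. The bands were also split by the width of the NT interval. Among NT intervals of at least 2 kb with a score between 30 and 50, 12 of 13 channel genes (92.3%, 66.7% to 98.6%) and 87.9% of 738 genes had an LPS interval. Among narrower NT intervals with a score of up to 30, 7 of 14 channel genes (50%, 26.8% to 73.2%) and 18.1% of 4514 genes did. The part that width and score have in the larger share at channel genes was not tested beyond these bands.

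**Figure D1:**
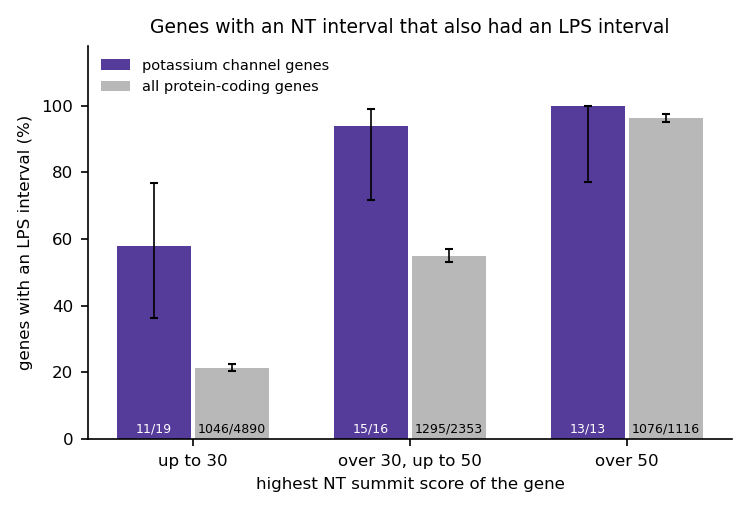
Share of genes with an NT interval that also had an LPS interval (y axis, percent), in 3 bands of the highest NT score (x axis), for potassium channel genes and for all protein-coding genes. Error bars are 95% Wilson intervals, and the numbers inside the bars are genes with LPS over genes with NT. The bars differ most below a score of 50, and over 50 the shares are 100% and 96.4%.

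Voltage-gated pore subunits were the class with the highest shares, with an NT interval at 21 of 30 genes (70%, Wilson interval 52.1% to 83.3%) and an LPS interval at 19 (63.3%, 45.5% to 78.1%). In this class Kcnc1, Kcnc2, Kcnc4, Kcnq1, Kcnq3 and Kcnq5 had intervals in both libraries, as did 5 of the 8 Kcnh genes, while Kcnh5 and Kcnh8 had one in NT alone. Only 3 of 8 Kcna genes and 1 of 3 Kcnd genes had one in NT, all of them also in LPS. Accessory subunits lay at the other end, with NT at 3 of 15 genes (20%, 7.05% to 45.2%) and LPS at 2 (13.3%, 3.74% to 37.9%). None of the 4 Kcne genes had an interval. The Wilson interval of the accessory subunits in NT includes the 38.2% of all genes, as do those of the silent modifiers, the inward rectifiers and the calcium- or sodium-activated class. That of the tandem-pore channels (9 of 14, 64.3%, 38.8% to 83.7%) begins just above it. In LPS the share of all genes was 16.1%. The Wilson intervals of the voltage-gated and tandem-pore classes (the latter 50%, 26.8% to 73.2%) lay above that share, and those of the other classes included it. Differences between classes were not tested, since genes are not replicates.

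**Figure D2:**
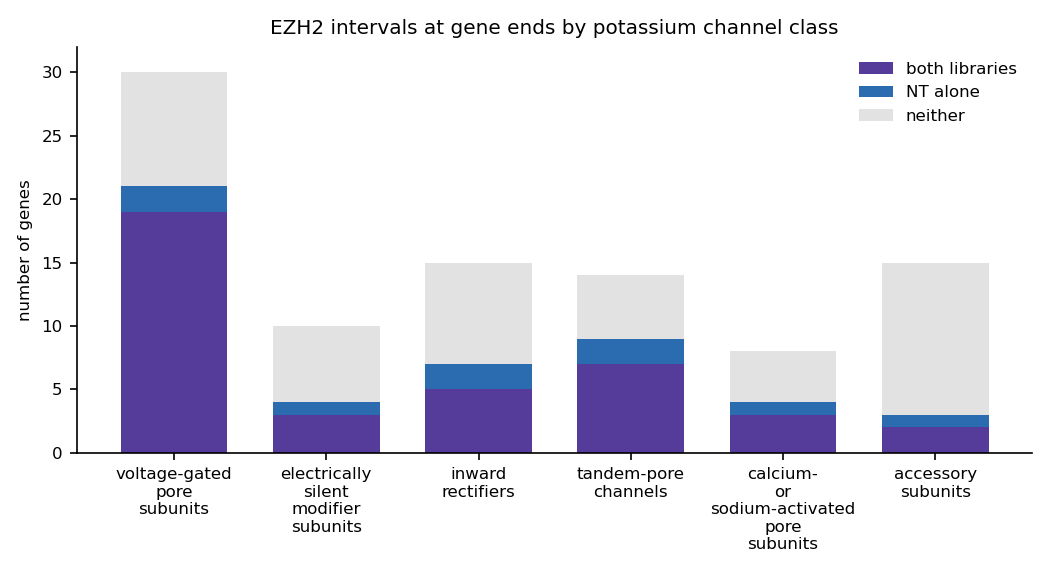
Number of genes (y axis) of each of the 6 potassium channel classes (x axis) with an EZH2 interval at a gene end in both libraries, in NT alone or in neither. Voltage-gated pore subunits have intervals at 21 of 30 genes and accessory subunits at 3 of 15.

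Kcnh3, a voltage-gated pore subunit of forebrain neurons, had the highest score of its class, 90 in NT and 44 in LPS. Its NT interval, chr15:99221158-99228672, was 7515 bp wide, and its LPS interval, chr15:99221774-99226844, lay inside it. Both met 1 end of the gene and left most of its length uncovered.

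The Kcnc genes encode the fast channels of rapidly firing neurons. Of these, Kcnc1 scored 62 in NT and 31 in LPS, Kcnc2 24 and 15, and Kcnc4 52 and 38. Kcnc4 had the highest LPS to NT ratio (0.731) among the 20 channel genes with both intervals and a mean score at or above their median. Kcnc2 thus scored below the NT median of all genes, and Kcnc1 and Kcnc4 above it.

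The Kcnq genes described here lay close together. Kcnq1, the slow delayed rectifier of heart and epithelia, scored 35 in NT and 16 in LPS. Kcnq3, a subunit of the neuronal M-current channel, scored 40 and 14, and Kcnq5, a related neuronal subunit, 43 and 15. The NT scores of these 3 genes thus spanned 35 to 43 and the LPS scores 14 to 16. LPS scores also lay below NT scores over most protein-coding genes with both intervals, with a median ratio of 0.491.

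Among the Kcnh genes, Kcnh2, which carries the rapid delayed rectifier of the heart, scored 48 in NT over a 6004 bp interval. In LPS the stretch was listed as 2 intervals, scored 27 and 25. Kcnh6, a close relative of Kcnh2, scored 50 and 16, but its interval lay at the 3′ end and also met Dcaf7, so it cannot be assigned to either gene. The others scored lower: Kcnh4 24 and 17, Kcnh1 20 and 10, and, in NT alone, Kcnh5 17 and Kcnh8 14. Kcnh1 is a neuronal channel of the ether-à-go-go type, and its NT interval began 1706 bp from the outer gene end. Its annotated promoter, chr1:192190527-192190826, lay just before that interval, which began at 192190850.

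Other voltage-gated genes with both intervals were Kcna7 (64 in NT, 35 in LPS), Kcnd3 (29 and 22), Kcna1 (28 and 14) and Kcna6 (24 and 14). Kcnd3 encodes a pore subunit of the transient outward current of heart and neurons, and Kcna1 and Kcna6 encode neuronal delayed rectifiers. Kcna7 also had an interval at its 3′ end, scored 60 and 28, which met Ntf5 and Lhb as well. Of the silent modifiers, Kcng3 scored 80 and 36, Kcng2 65 and 30, and Kcng1 47 and 25, while Kcns2 scored 21 in NT alone. So 3 of 4 Kcng genes, and none of the Kcnf, Kcnv or other Kcns genes, had intervals in both libraries. All of these Kcng and Kcns proteins are known to join the Kcnb channels.

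**Figure D3:**
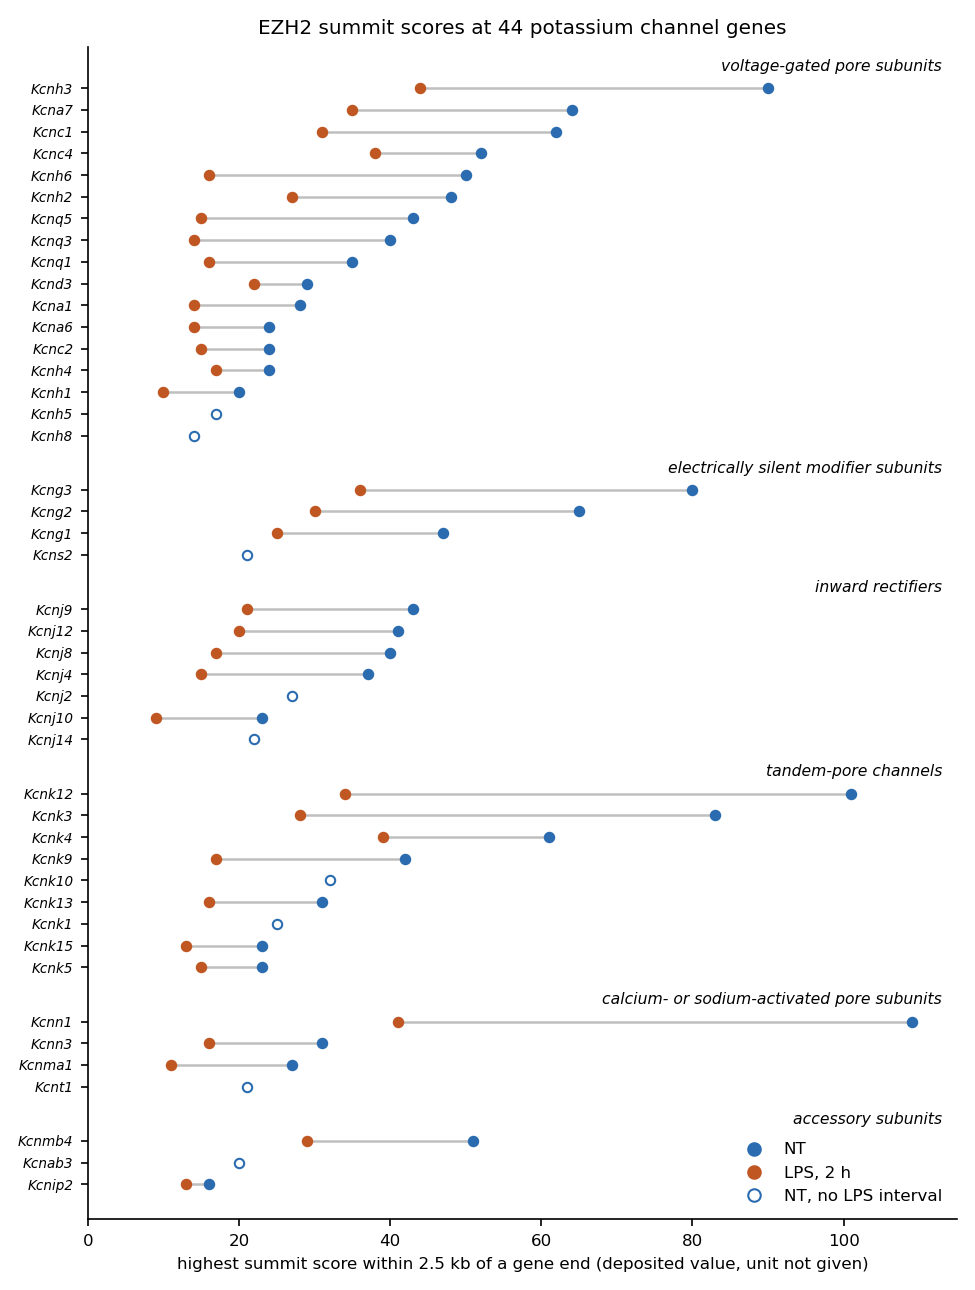
Highest summit score within 2.5 kb of a gene end (x axis, the authors' value, unit not given) for 44 potassium channel genes with an NT interval, grouped by class. Blue points are NT and orange points LPS, joined by a line for the 35 genes with both, and open points mark the 9 genes with no LPS interval. At each of the 35 genes the LPS score is the lower one.

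Intervals were found at 7 of 15 inward rectifiers in NT (46.7%) and at 5 in LPS (33.3%), against 38.2% and 16.1% of all genes. Their NT scores lay between 22 and 43, so that none reached the highest scores of the other pore classes. Kcnj9, a G protein-gated subunit of neurons, scored 43 in NT and 21 in LPS. Kcnj12, a strong rectifier of heart and muscle, scored 41 and 20, and Kcnj8, the pore of the vascular ATP-sensitive channel, 40 and 17. Kcnj4, a strong rectifier of brain, scored 37 and 15 at its gene end. A larger interval inside Kcnj4, over an annotated start at 79505241 on chromosome 15, scored 99 and 50 and lay beyond the window, so that the gene-end rule understates this gene. Kcnj10, the inward rectifier of glia, had an interval at its start that scored 19 in NT alone, and one at its 3′ end, shared with Pigm, that scored 23 and 9. Kcnj2 (27) and Kcnj14 (22) had an NT interval alone, and the latter also met Cyth2.

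Of the 14 tandem-pore genes, 9 had an interval in NT (64.3%) and 7 had one in LPS (50%), against 38.2% and 16.1% of all genes. Kcnk12, a halothane-inhibited channel that gives little current when expressed alone, scored 101 in NT over chr17:87796449-87799946. In LPS this stretch held 2 intervals, scored 17 and 34. Kcnk3, an acid-sensitive background channel, had 3 NT intervals, scored 22, 83 and 46, and 1 LPS interval, scored 28, over the highest. Kcnk4, a mechanically gated neuronal channel, scored 61 and 39. A further interval at its 3′ end, scored 44 and 24, met Esrra and Catsperz too. Kcnk12 and Kcnk3 were thus among the lowest ratios (0.337 each) and Kcnk4 among the highest (0.639).

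The other tandem-pore genes scored less. Kcnk9, a relative of Kcnk3, scored 42 in NT and 17 in LPS, Kcnk13 31 and 16, Kcnk5 23 and 15, and Kcnk15 23 and 13. Kcnk10, a mechanically gated channel related to Kcnk4, scored 32 in NT with no LPS interval in the window. An LPS interval of score 23, chr12:98573847-98575648, lay inside the span of that NT interval and just beyond the window, so the placement of Kcnk10 in NT alone rests on the window. Kcnk1, a weak inward rectifier of this family, scored 25 in NT alone.

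Kcnn1, a small-conductance calcium-activated channel of neurons, had the highest NT score of all channel genes, 109, at the 98.5th percentile of genes with an NT interval. Its LPS score was 41, a ratio of 0.376, and stood at the 90.6th percentile. The NT interval, chr8:70861317-70866076, and the LPS interval, chr8:70861324-70866224, were nearly the same stretch, and both also met Ccdc124. Kcnn3, another small-conductance channel, scored 31 and 16, Kcnma1, the large-conductance channel opened by voltage and calcium, 27 and 11, and Kcnt1, a sodium-activated channel, 21 in NT alone. Kcnma1 and Kcnn3 thus lay near or a little above the NT median of all genes, far below Kcnn1.

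Of the 15 accessory genes, Kcnmb4, the neuronal beta subunit of the Kcnma1 channel, scored 51 in NT and 29 in LPS. Kcnip2, a calcium-binding partner of Kcnd channels in heart, scored 16 and 13 in an interval shared with Armh3. Kcnab3, a cytoplasmic beta subunit of Kcna channels, scored 20 in NT alone in an interval shared with Cntrob and Trappc1. Kcnmb4 was thus the one accessory gene whose interval at a gene end met no other gene.

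At all 39 genes with both intervals the LPS score was lower than the NT score, with a median ratio of 0.50 (quartiles 0.406 and 0.564, range 0.287 to 0.812). The same ratio over 3417 protein-coding genes with both was 0.491 (quartiles 0.407 and 0.577), and 21 of the 39 channel genes were above it. The channel genes therefore did not stand apart in the ratio of their scores, and most genes of the whole list also scored lower in LPS. In the pool of 20 with higher scores, the 5 lowest ratios included those of Kcnh6 (0.320), Kcnk12, Kcnk3 and Kcnn1, and the 5 highest those of Kcnc4, Kcnk4, Kcnmb4 (0.569) and Kcnh2 (0.562). No error can be put on a single ratio.

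The highest NT and LPS intervals of a gene overlapped at 38 of these 39 genes. Their summits lay within 500 bp of each other at 30 genes, with a median distance of 144 bp. The overlap covered a median of 75.6% of the NT interval and 100% of the LPS interval. At these genes the highest LPS interval thus lay mostly within the highest NT interval. Overlap was not counted over all protein-coding genes, so this is not shown to be particular to channel genes.

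Where strand was known, most intervals stood at the start of the gene. The side was not counted over all protein-coding genes, so this is not shown to be particular to channel genes. Strand was known for 32 of the 48 genes, and the highest NT interval met the 5′ end at 29, the 3′ end at 2 and both at 1. In LPS it was 25 at the 5′ end and 2 at the 3′ end. The 33 NT intervals at a 5′ end had their summits between 348 bp before and 3077 bp inside the gene, with a median of 603 bp inside, and 26 of 33 summits lay inside the gene. In LPS 24 of 29 did, with a median of 698 bp. Of the 58 NT intervals at channel genes, 12 also met another protein-coding gene, and none met 2 channel genes, so no count here rests on 1 interval shared between channel genes.

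**Figure D4:**
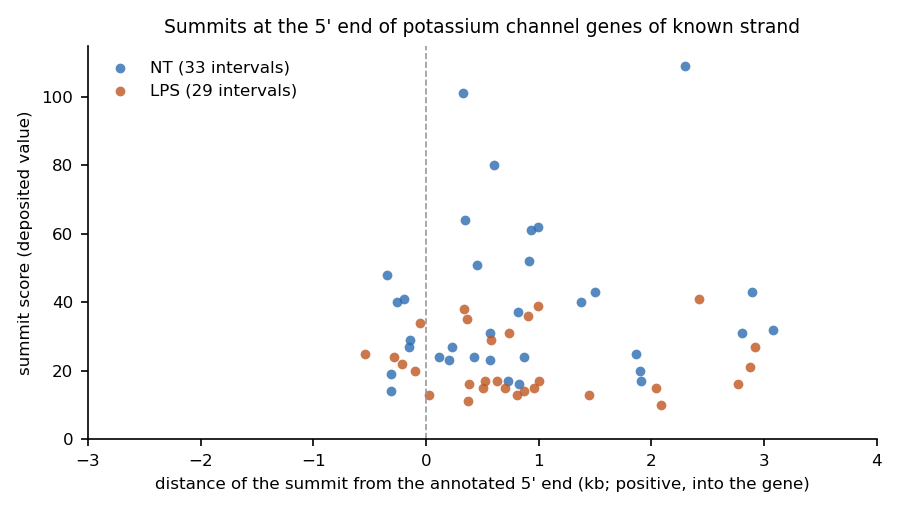
Distance of the summit from the annotated 5′ end (x axis, kb, positive into the gene) against summit score (y axis, the authors' value) for 33 NT and 29 LPS intervals at potassium channel genes of known strand. Most points of both libraries lie to the right of the dashed line at the 5′ end, with medians of 603 bp in NT and 698 bp in LPS.

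The window left out intervals deep inside genes. In NT 10 intervals lay inside 9 channel genes at more than 2.5 kb from both ends, and in LPS 8 lay inside 7. Of the NT ones, 4 were at genes with none at an end. Kcna2 held the highest-scoring of these, chr3:107100128-107104587, scored 82 and 54. Kcnip3, a calcium-binding partner of Kcnd channels, held chr2:127480567-127485122, scored 55 and 36, over an internal start at 127482499. Kcnab2 (24) and Kcnn2 (19) held smaller ones, in NT alone. Kcnt1, with an interval in NT alone at its end, also held one inside the gene, scored 16 in NT and 11 in LPS. Counting whole gene bodies raised the channel genes to 52 in NT and 43 in LPS, against 40.5% and 17.6% of all genes. At the limits of the window, the gaps from gene end to interval just inside it were 1706 bp at Kcnh1, 2253 bp at Kcnj9 and 2359 bp at Kcnk10. Just outside, they were 3990 bp at Kcnd1, 5599 bp at Kcnk6 and 7491 bp at Kcnu1.

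Of the 92 channel genes, 67 had an entry in the promoter table, with 92 promoters, since some had several starts. Those without one included Kcna1, Kcnab3, Kcnb2, Kcnd1, Kcne1, Kcng1, Kcng2, Kcnh3, Kcnj11, Kcnj14, Kcnk3, Kcnk6, Kcnk9, Kcnn2, Kcnq1, Kcnq3, Kcns2, Kcnt1, Kcnu1, Kcnv1 and Kcnv2. NT intervals met 33 of the 92 promoters (35.9%), against 32.3% of all 21262 promoters, and LPS intervals met 24 (26.1%) against 11.9%. Channel promoters met by NT had a median of 18 CG in 300 bases and those not met 7. Over all genes these were 24 and 6. The letters GGGCGG, searched on both strands as the core of a GC box, were in 57.6% of channel promoters met by NT and in 42.4% of those not met, against 73.3% and 33.2% over all genes and 46.2% of all promoters.

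The 2 kinds of promoter shown above recur in these counts. Of channel promoters with at most 5 CG, 7 of 29 (24.1%) were met by an NT interval, against 1.96% of 6875 such promoters. These 7 belonged to 5 genes, Kcna7, Kcnab2, Kcnc2, Kcnk4 and Kcnq5. Several promoters of 1 gene can be met by 1 interval, as were 3 of Kcnc2, some of them at the edge of the interval only. Another start of Kcnq5 had 20 CG. Of channel promoters with 31 or more CG, 5 of 10 (50%) were met, against 65.3% of 2974 such promoters. The 5 not met belonged to Kcna3, Kcnk2, Kcnma1 and Kcns3. That of Kcnma1 was narrowly missed. It ended at 24004455 on chromosome 14, and the intervals at the 5′ end of the gene began at 24004541 in NT and 24004517 in LPS. Kcnk2 encodes a mechanically gated background channel and Kcns3 a silent modifier. In the middle bands the NT shares were nearer to those of all genes, with 21.4% against 24.6% for 6 to 15 CG and 60% against 55.0% for 16 to 30 CG. LPS intervals met 14.3% against 10% and 40% against 19.2% in these bands. With 31 or more CG they met 5 of 10 channel promoters (50%) against 23.6%. The same 5 were met in NT, and only the share of all genes differed. These shares rest on 10 promoters and were not tested. With at most 5 CG they met 5 of 29 (17.2%) against 1.22%. CG content beyond the 300 bases was not measured.

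**Figure D5:**
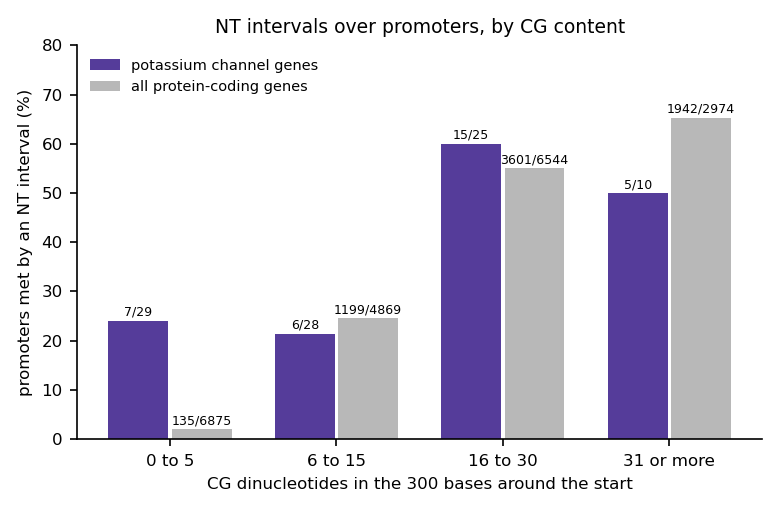
Share of promoters met by an NT interval (y axis, percent) by the number of CG dinucleotides in the 300 bases around the start (x axis), for potassium channel genes and all protein-coding genes. Numbers over the bars are promoters met over promoters in the band. In the band of 0 to 5 CG the shares are 24.1% (7 of 29, from 5 genes) and 1.96%.

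Of 8 channel genes known from macrophages, 3 had an interval at a gene end in NT (37.5%, Wilson interval 13.7% to 69.4%) and 2 in LPS (25%, 7.15% to 59.1%), ranges that include the 38.2% and 16.1% of all genes. Kcnk13, the tandem-pore channel that sets potassium efflux in microglia, scored 31 in NT and 16 in LPS, and Kcnma1 27 and 11. Kcnj2, the strong inward rectifier of macrophages, scored 27 in NT alone. Kcna3, Kcna5, Kcnn4 and Kcnk6 had none in either library, nor did Kcnab2 at its ends. Kcna3 and Kcna5 encode the voltage-gated channels of macrophages, Kcnn4 their intermediate-conductance calcium-activated channel, and Kcnk6 a tandem-pore channel linked to inflammasome activation. The nearest NT interval lay 61999 bp from an end of Kcna3, 107768 bp from Kcna5, 94659 bp from Kcnn4 and 5599 bp from Kcnk6.

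Related genes outside the Kcn names were read the same way. Of 32, which were auxiliary proteins of potassium channels, other cation channels, sodium pump subunits, chloride cotransporters and regulators, 15 had an interval in NT (46.9%, Wilson interval 30.9% to 63.6%) and 9 in LPS (28.1%, 15.6% to 45.4%), and both Wilson intervals include the shares of all genes, 38.2% and 16.1%. Of the Hcn genes, which encode the hyperpolarisation-activated pacemaker channels, Hcn2 scored 47 in NT and 29 in LPS, Hcn3 20 and 12, and Hcn4 69 and 33. Atp1b2, a sodium pump beta subunit of glia, scored 100 and 54, Atp1b1, the widely used beta subunit, 50 and 27, and Lrrc26, an auxiliary subunit of Kcnma1, 59 and 30. The neuronal potassium-chloride cotransporter Slc12a5 scored 45 and 32. The 4 cyclic nucleotide-gated genes of the list, Cnga1 to Cnga4, had no interval, and neither did Dpp6 or Dpp10, partners of Kcnd channels. The lysosomal potassium channel Tmem175 (51) and the sodium pump beta subunit Atp1b3 (23) were among the 6 genes with an NT interval alone.

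The split between the libraries depended on the length of the lists. When the NT list was cut to its 4651 highest-scoring intervals, the length of the LPS list, 33 channel genes had an NT interval, against 20.6% of all genes. Then 2 had one in NT alone, against 8.17% of all genes, and 8 in LPS alone, against 3.75%. The latter were Kcna6, Kcnc2, Kcnh1, Kcnh4, Kcnip2, Kcnj10, Kcnk15 and Kcnk5. The count of 0 channel genes in LPS alone therefore holds for the lists as the authors deposited them and not at equal length. When intervals that met more than 1 gene were left out, 33 of 41 channel genes with an NT interval (80.5%) had one in LPS, against 44.2% of 5540 genes.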

How the data were processed

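EZH2 ChIP-seq of NT and LPS-treated bone marrow-derived macrophages was read from tracks that the authors deposited for 1 library each. The submitters' processing notes name BWA, a read aligner, SICER, a caller of broad enriched islands, and the build mm10, with no versions or settings. The deposited score of a summit is the authors' value in a unit not given in the sources used here, and all scores were whole numbers. Other deposited columns are BED positions, counted from 0 and printed here 1-based. Each interval was joined to the summit inside it. Intervals were listed per library, and SICER joins windows into broad islands, so that 1 interval can meet several genes.

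Gene positions came from the RefSeq table of GRCm38.p6, which has no strand. Strand and starts came from the RefSeq promoter table of the same assembly, for the 67 members it lists. Intervals were joined to genes with pandas 2.3.3 and numpy 2.4.6 under Python 3.11.15, checked on simulated intervals, and Wilson intervals at 95% were computed with statsmodels 0.14.6. Ratios of LPS to NT score are not scaled to depth, which is unknown.

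Member genes, classes and gene lists were chosen with earlier results of these data known. The text was to name 34 genes, taken as the 3 highest NT scores of each class, the macrophage list, the 5 highest and 5 lowest ratios, the genes at the limits of the window and the 5 with most covered bases. Other members were named after their values were seen, and some genes are not reported here by name. Alternatives were windows of 1 kb and 5 kb, gene bodies, summits alone, stricter or shorter interval lists, merged intervals and annotated starts alone. In the shortened NT list, ties in score were taken in genome order. Intervals that meet 1 gene only, LPS intervals added by overlap and all values of the share of NT genes with LPS were chosen after seeing the data.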

Additional observations from a re-analysis of the deposited data

How the results depend on the processing

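Of 186 alternative values, 170 stayed within 1.5 times the reported value or, for the share of NT genes with LPS, within its Wilson interval. Among the others, annotated starts alone (1 kb on each side, 67 genes with a promoter entry) gave 31 channel genes in NT, 25 in LPS and 25 in both, against 35.7%, 14.2% and 13.6% of 17491 genes; fewer genes could be counted there. Intervals at or above the median score of their list left 33 in NT and 27 in LPS, against 21.3% and 9.75% of all genes. These 2 counts stayed within the limit of 1.5 times, and the 1 in LPS alone, Kcnh4, against 0.516%, did not. With the NT list shortened to as many intervals as in LPS, there were 2 in NT alone, 8 in LPS alone, and a share of NT genes with LPS of 93.9%, against 60.3% of all genes. Over the other settings this share was 78.8% to 83.3%, and the median ratio was 0.488 to 0.565 over all of them. By class, LPS intervals at inward rectifiers fell to 3 with a 1 kb window, with summits alone and with the stricter scores, and accessory subunits had NT intervals at 1 to 5 genes. No paired analysis was possible because NT and LPS are single libraries. Without replicates, read depth or a known score unit, no difference between NT and LPS at a single gene has an error, and the LPS values rest on taking the track named TLR as the LPS sample.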
